A study of Mus musculus with 6 samples.

Results

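Growth factors that the oocyte releases onto its surrounding follicle cells were examined in fully-grown oocytes (FGOs) collected at the germinal vesicle (GV) stage, before meiosis resumes, from Lsm14b-knockout (Lsm14b-KO) mice and wild type (WT) controls. The group was defined by name and holds 5 genes: Gdf9, Bmp15, Bmp6, Fgf8 and Tgfb2. All 5 were found among the 24255 genes of the deposited expression table, and all 5 passed the filter on low values that left 6398 genes for testing, Bmp6 only through 1 Lsm14b-KO library. Values are FPKM, that is, sequenced fragments scaled to transcript length and to the library total.

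Each of the 6 RNA-Seq libraries, 3 per genotype, was made from the total RNA of 20 oocytes by a Smart-seq2 procedure with random primers. Females of both genotypes received 5 IU of the gonadotropin PMSG to stimulate their follicles, and oocytes were taken 46 h later. The Lsm14b-KO females were homozygous for the reporter-tagged insertion Lsm14b tm1a(KOMP)Mbp on the C57BL/6J background. This allele is carried by every cell of the animal, so follicle cells lack the intact gene as well as the oocyte. The paper reported LSM14B protein in oocytes and not in granulosa cells. The age of the females is not given in the sources used here. It is also not stated whether the 3 libraries of a genotype came from separate mice, so p-values measure the spread between these samples, which may be technical. LSM14B binds RNA, and the comparison asks which oocyte mRNAs differ in amount when its gene is disrupted.

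An oocyte and the granulosa cells around it, of which the innermost are called cumulus cells, exchange signals throughout follicle growth. GDF9 and BMP15 are members of the TGF-β superfamily that the oocyte makes as precursors and secretes. They drive granulosa cell proliferation and cumulus expansion, and they can pair into a heterodimer that is a strong activator of SMAD signaling. BMP6 is a further superfamily ligand and acts through BMP receptors. FGF8 is a fibroblast growth factor and, together with BMP15, raises the glycolytic activity of the cumulus. TGFB2 is a TGF-β isoform that is secreted in a latent form.

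Stretches of Gdf9 and Bmp15 mRNA recovered with LSM14B in the study's LACE-seq experiment are shown first. LACE-seq is a method that maps where a protein contacts RNA. The paper reported such contacts for a large number of mRNAs, so they do not set these mRNAs apart. Stretches of Fgf8, Tgfb2 and Bmp6 were not looked up. The paper also lists oogenesis factors found by LACE-seq and among proteins recovered with LSM14B. That list holds GDF9, BMP15 and FGF8, without stating which method found each. The list of stretches was used here only in shortened form, for its sequences alone. The entries of both genes were cut off, so stretches in other parts of either mRNA may be missing. Where the stretches lie is therefore not compared between the genes. A Gdf9 stretch ran from the 5′ untranslated region into the coding sequence. Its first 300 coding bases lie at chr11:53433406-53433705 (GRCm38, plus strand), at positions 108 to 407 of transcript ENSMUST00000018382.6, and the capitals mark the start codon.
Gdf9: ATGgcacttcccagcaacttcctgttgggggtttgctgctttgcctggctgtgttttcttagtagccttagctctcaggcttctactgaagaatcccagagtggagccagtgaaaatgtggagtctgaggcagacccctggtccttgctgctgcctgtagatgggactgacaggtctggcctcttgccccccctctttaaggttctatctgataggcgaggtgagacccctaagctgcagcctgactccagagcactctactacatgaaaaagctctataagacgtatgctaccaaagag
The Bmp15 stretches that could be placed lay in the 3′ untranslated region of ENSMUST00000024049.7, downstream of the stop codon that ends at position 1537 of its 3060 bases. The 3 shortest of them, of 20 bases each, begin at transcript positions 2385, 2585 and 2645 (X chromosome, minus strand, at chrX:6314763-6314782, chrX:6314563-6314582 and chrX:6314503-6314522).
Bmp15 position 2385: tctagagctctactttaatc
Bmp15 position 2585: atcattgttcattcctatct
Bmp15 position 2645: ctcaacagttgatgctcaca

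The targeted gene served as a check of the labels. Lsm14b was at 2.77, 3.98 and 1.72 FPKM in WT libraries 1, 2 and 3, listed at 0 in Lsm14b-KO libraries 1 and 2, and at 0.102 FPKM in library 3 (limma, log2 fold change -1.85, adjusted p = 0.0038). The Lsm14b-KO libraries differed in how near they stood to WT, by correlation on log2(FPKM + 1) over the tested genes. Library 1 correlated with the WT libraries at r = 0.952 to 0.954, library 2 at 0.867 to 0.890 and library 3 at 0.917 to 0.929. Within Lsm14b-KO, library 1 correlated at 0.917 with library 2 and 0.960 with library 3, and libraries 2 and 3 at 0.974. The WT libraries correlated with one another at 0.981 to 0.986. The FPKM of a library summed to 1141320 to 1244180 in WT and to 564671 to 1029730 in Lsm14b-KO, so rescaling the values to a common total (TPM) moved the median log2 difference of all tested genes by 0.48. Long transcripts lay higher than short ones in Lsm14b-KO: the median log2 fold change was -0.62 over 949 genes under 1000 nt and 0.29 over 1315 genes over 4000 nt.

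All 9 oocyte markers on the marker list were tested and none passed, with summed FPKM of 41898 to 55349 in WT and 25660 to 73684 in Lsm14b-KO. Most of these sums was Dppa3, at 34582 to 47684 FPKM in WT and 19433 to 63633 FPKM in Lsm14b-KO. Of 18 markers of cumulus and granulosa cells, 8 were listed at 0 in all libraries: Foxl2, Amh, Npr2, Inhba, Slc38a3, Ptx3, Tnfaip6 and Nr5a1. The summed FPKM of the 18 was 9.73 to 13.5 in WT and 6.13 to 10.2 in Lsm14b-KO, and Cyp19a1, the aromatase gene, made up 84.7% to 88.9% of it in WT and 49.0% to 60.7% in Lsm14b-KO. Of the 3 markers tested, Cyp19a1 was at 10.1 ± 1.65 FPKM in WT and 4.75 ± 1.51 FPKM in Lsm14b-KO (SD, n = 3, log2 fold change -0.98, limma adjusted p = 0.0426), a call that was lost in 8 of 13 alternative settings. Fshr, the FSH receptor gene, was at 0.852 ± 0.724 and 1.94 ± 0.129 FPKM (adjusted p = 0.0923), and Inha, an inhibin subunit, was at most 0.204 FPKM in WT and 0.158 to 1.06 FPKM in Lsm14b-KO (adjusted p = 0.301). Markers of theca and stroma summed to at most 0.397 FPKM, those of leukocytes to at most 0.733, and those of red blood cells were at 0 in all libraries.

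Of the growth factors, Fgf8 fell in Lsm14b-KO FGOs, and no test passed for Gdf9, Bmp15, Tgfb2 or Bmp6. The count of 1 called gene of 5 stands beside 21.6% of all tested genes called in either direction, 6.38% called higher and 15.2% called lower. The genotypes did not overlap for 1 of the 5 genes, again Fgf8, against 45% of all tested genes. In all 6 libraries the order of levels was Gdf9, Bmp15, Tgfb2, Fgf8 and Bmp6. In WT only the neighbors Tgfb2 and Fgf8 overlapped in their ranges, and in Lsm14b-KO only Gdf9 and Bmp15 did. These are levels in pools of whole oocytes, in which fewer oocytes holding a transcript and less of it per oocyte cannot be told apart.

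**Figure D1:**
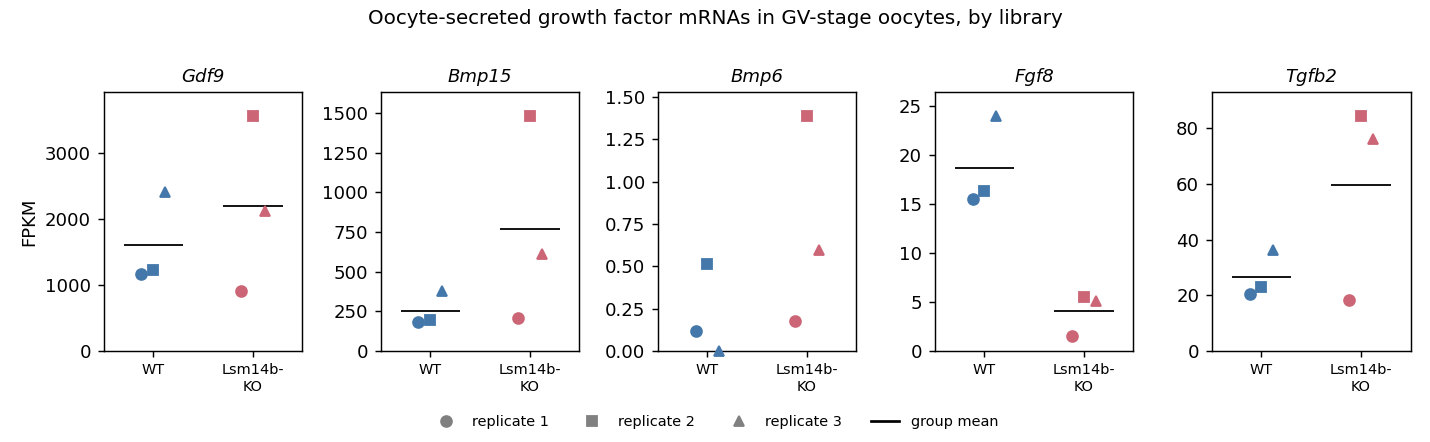
FPKM of the 5 growth factor mRNAs in each library (vertical axes in FPKM, each starting at 0 with its own range). Symbols are replicates 1, 2 and 3 of WT and Lsm14b-KO, and horizontal lines are group means, omitted for Bmp6 because 1 library is listed at 0. The Fgf8 points of Lsm14b-KO lie at 1.52 to 5.47 FPKM, below all WT points at 15.5 to 23.9 FPKM, whereas the genotypes overlap for the other genes.

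Gdf9, on chromosome 11 (53431023 to 53437904, GRCm38, plus strand), has a 2-exon transcript of 1793 nt. It was the most abundant growth factor of the group. WT libraries 1, 2 and 3 held 1167, 1224 and 2403 FPKM, and Lsm14b-KO libraries 1, 2 and 3 held 914, 3561 and 2122 FPKM. WT library 3 lay at about the level of Lsm14b-KO library 3, and Lsm14b-KO held both the lowest and the highest value. Gdf9 ranked 92 to 164 among the tested genes in WT and 35 to 172 in Lsm14b-KO. The means were 1598 ± 698 and 2199 ± 1325 FPKM (SD, n = 3). The log2 fold change was 0.34 ± 0.53 (SE) with a 95% interval of -0.89 to 1.56, and it did not pass (limma adjusted p = 0.646, two-sided exact permutation p = 0.7). Without Lsm14b-KO library 2 it turned to -0.12 (adjusted p = 0.886).

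Bmp15, on the X chromosome (6314107 to 6320721, minus strand), has 2 exons and a transcript of 3060 nt. The values were 183, 197 and 380 FPKM in WT and 204, 1482 and 611 FPKM in Lsm14b-KO libraries 1, 2 and 3. Lsm14b-KO libraries 2 and 3 exceeded every WT library, and library 1 lay inside the WT range. Group means were 253 ± 110 and 766 ± 653 FPKM (SD, n = 3), and the largest Lsm14b-KO value was 7.26 times the smallest, compared with 2.07 times in WT. The log2 fold change of 1.25 ± 0.68 (SE, 95% interval -0.32 to 2.82) did not pass (limma adjusted p = 0.203, two-sided exact permutation p = 0.2). Leaving out Lsm14b-KO library 1 gave 1.99 with an adjusted p of 0.0131, and leaving out library 2 gave 0.56.

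Tgfb2, on chromosome 1 (186622792 to 186705989, minus strand), has 7 exons and the longest transcript of the group at 5116 nt. An antisense gene and a small nucleolar RNA gene overlap it on the other strand, and the strandedness of the libraries is not given, so their reads cannot be told apart from those of Tgfb2. WT held 20.4, 23.0 and 36.2 FPKM, and Lsm14b-KO held 18.4, 84.4 and 76.1 FPKM in libraries 1, 2 and 3. As with Bmp15, Lsm14b-KO libraries 2 and 3 were above all of WT and library 1 was not. Means were 26.5 ± 8.48 and 59.6 ± 36.0 FPKM (SD, n = 3), and the log2 fold change of 0.91 ± 0.57 (SE, 95% interval -0.40 to 2.23) did not pass (limma adjusted p = 0.256, two-sided exact permutation p = 0.4). Without Lsm14b-KO library 1 it was 1.60, with an adjusted p of 0.00437.

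Fgf8, on chromosome 19 (45736798 to 45742915, minus strand), has 5 exons and the shortest transcript, 1168 nt, with the highest GC content of the group, 62.8%. WT libraries 1, 2 and 3 held 15.5, 16.3 and 23.9 FPKM, and Lsm14b-KO libraries held 1.52, 5.47 and 5.13 FPKM. Every Lsm14b-KO library lay below every WT library. Library 1, which stood nearest to WT over all genes, was the lowest. It was also the lowest Lsm14b-KO library for each of the other growth factors. The mean fell from 18.6 ± 4.65 to 4.04 ± 2.18 FPKM (SD, n = 3), which is 4.60-fold lower. The log2 fold change was -2.05 ± 0.40 (SE, 95% interval -2.96 to -1.14, limma adjusted p = 0.0128), and the exact permutation p was 0.10, the smallest that 3 against 3 samples can give. Among tested transcripts of 1000 to 2000 nt the median log2 fold change was -0.32, and after a correction for length and GC content the Fgf8 value was -1.76 (adjusted p = 0.016). The call was lost on the TPM scale (-1.43, adjusted p = 0.0828), where the libraries still did not overlap (12.5 to 21.0 TPM in WT, 1.48 to 9.68 TPM in Lsm14b-KO), and without WT library 1, 2 or 3 (-2.16, -2.13 and -1.86, adjusted p = 0.0565, 0.056 and 0.0658).

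Bmp6, on chromosome 13 (38345107 to 38500302, plus strand), has 7 exons and a transcript of 3593 nt that overlaps Txndc5 and an antisense gene on the other strand. It was near the limit of detection. Its values were 0.118, 0.514 and 0 FPKM in WT libraries 1, 2 and 3, and 0.176, 1.39 and 0.594 FPKM in Lsm14b-KO libraries. Allowing for the relative depth of the libraries, these values lay within 0.02 of 1, 5, 0, 2, 23 and 11 times the value of WT library 1, so that they may stand for very few fragments. The log2 fold change of 0.47 ± 0.31 (SE, 95% interval -0.24 to 1.17) did not pass (limma adjusted p = 0.277), and a difference was not detectable at this depth.

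**Figure D2:**
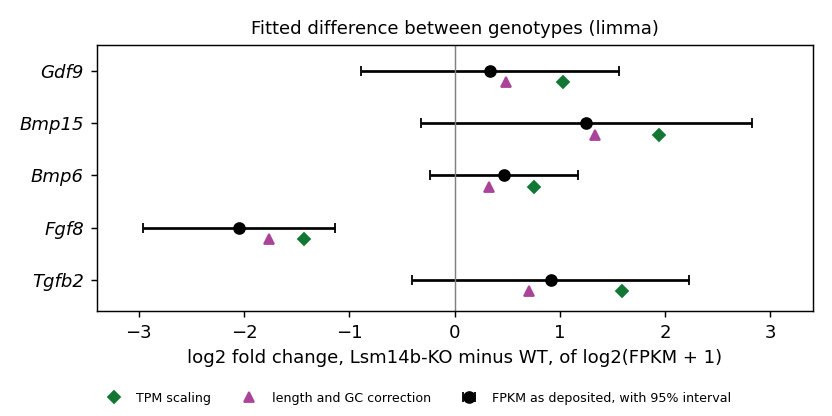
Fitted log2 fold change of each growth factor, Lsm14b-KO minus WT, on the log2(FPKM + 1) scale (horizontal axis). Black points with bars are the values with 95% intervals from the deposited FPKM, diamonds the same fit after TPM scaling and triangles after correction for transcript length and GC content. The Fgf8 interval of -2.96 to -1.14 lies below 0, and the intervals of the other 4 genes include 0.

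FPKM ratios between growth factors within a library do not depend on how that library was scaled. The log2 differences and their tests were taken on log2(FPKM + 1), which does depend on scaling and compresses ratios with low genes. The FPKM ratio of Gdf9 to Bmp15 was 6.37, 6.21 and 6.33 in WT libraries 1, 2 and 3 and 4.47, 2.40 and 3.47 in Lsm14b-KO libraries. In WT the ratio varied by 1.27% (coefficient of variation) although Gdf9 itself varied by 43.7% and Bmp15 by 43.3%. The means were 6.30 ± 0.0802 and 3.45 ± 1.04 (SD, n = 3), a difference of -0.91 on the log2 scale (two-sided exact permutation p = 0.10, the smallest possible, 0.167 after Benjamini-Hochberg adjustment over 10 pairs). The log2 ratios after the correction for length and GC content were 2.67, 2.59 and 2.60 in WT and 2.21, 1.26 and 1.84 in Lsm14b-KO, which again did not overlap.

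Of the summed FPKM of the 5 genes, Gdf9 made up 84.2%, 83.8% and 84.5% in WT libraries and 80.3%, 69.4% and 75.4% in Lsm14b-KO libraries 1, 2 and 3. Bmp15 made up 13.2%, 13.5% and 13.4% in WT and 17.9%, 28.9% and 21.7% in Lsm14b-KO. Both genes together held 97.3% to 97.9% in WT and 97.1% to 98.2% in Lsm14b-KO, about the same share in both genotypes. The share of Bmp15 was higher in every Lsm14b-KO library than in every WT library. These shares restate the Gdf9 to Bmp15 ratio, which did not pass (two-sided exact permutation p = 0.10, 0.167 after Benjamini-Hochberg adjustment). Of all pairs of tested genes, 44.4% did not overlap. The share of Fgf8 was 0.842% to 1.12% in WT and 0.106% to 0.182% in Lsm14b-KO.

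The ratio of Tgfb2 to Fgf8 was 1.31, 1.41 and 1.51 in WT and 12.1, 15.4 and 14.8 in Lsm14b-KO libraries 1, 2 and 3. WT libraries thus held the mRNAs at similar levels, and each Lsm14b-KO library held over 10 times as much Tgfb2 as Fgf8. The log2 difference was 2.97 (exact permutation p = 0.10, adjusted 0.167). It was 3.27 with a pseudocount of 0.1 and 2.47 after the correction for length and GC content. Gdf9 to Tgfb2 was 57.3, 53.2 and 66.4 in WT and 49.6, 42.2 and 27.9 in Lsm14b-KO (log2 difference -0.58, exact permutation p = 0.10, adjusted 0.167). After the correction for length and GC content this difference was -0.22 and the genotypes overlapped, and without Lsm14b-KO library 3 it was -0.35. Bmp15 to Tgfb2 overlapped between genotypes, at 9.00, 8.56 and 10.5 in WT and 11.1, 17.6 and 8.04 in Lsm14b-KO (exact permutation p = 0.6). In all, 6 of the 10 pairs did not overlap, and 4 of those contain Fgf8. Among the 6 pairs without Bmp6, which was near 0, 5 did not overlap. Over all pairs of tested genes 44.4% did not overlap. The 10 pairs are built from 5 genes and are not independent.

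**Figure D3:**
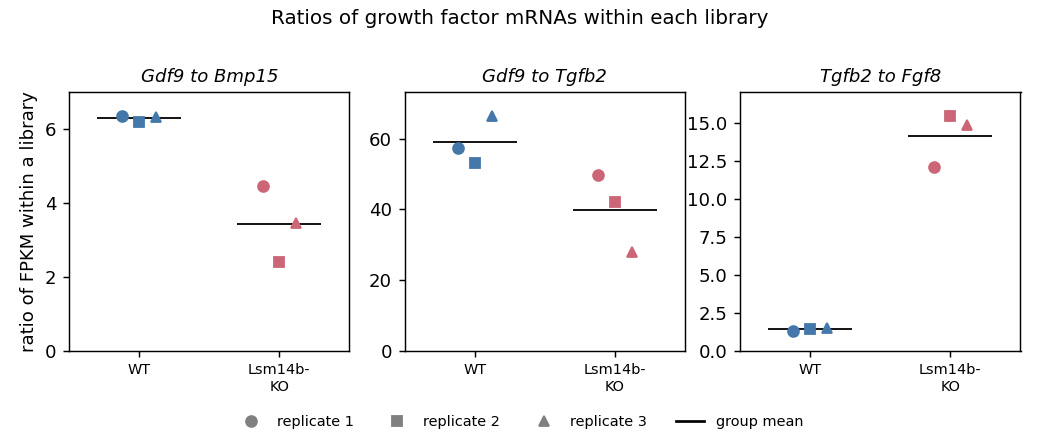
FPKM ratio of Gdf9 to Bmp15, Gdf9 to Tgfb2 and Tgfb2 to Fgf8 within each library (vertical axes start at 0, each with its own range). Symbols are replicates and horizontal lines are group means. The Gdf9 to Bmp15 ratio is 6.21 to 6.37 in WT and 2.40 to 4.47 in Lsm14b-KO, and on deposited FPKM the genotypes do not overlap in any of the 3 panels, which were chosen after their values were seen.

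Gdf9, Bmp15 and Tgfb2 ranked the 6 libraries in similar ways. Over the 6 libraries Pearson's r of log2(FPKM + 1) was 0.924 for Gdf9 and Bmp15, 0.901 for Gdf9 and Tgfb2, and 0.949 for Bmp15 and Tgfb2, whereas Fgf8 gave values from -0.32 to 0.17 with the other 4 genes. These are descriptions over 6 libraries that share genotype, scaling and depth. Within each genotype Gdf9, Bmp15, Fgf8 and Tgfb2 ordered the libraries alike, from low to high 1, 2, 3 in WT and 1, 3, 2 in Lsm14b-KO. The r values of Fgf8 over all 6 libraries are taken across its difference between genotypes. For all 4 genes the highest library was thus library 3 in WT and library 2 in Lsm14b-KO. Of the 9 oocyte markers, 6 were likewise highest in these libraries and 2, Dppa3 and Ooep, were lowest in them. The 4 most abundant markers are given. Dppa3, a maternal effect gene, was at 47684, 44721 and 34582 FPKM in WT and 63633, 19433 and 34753 FPKM in Lsm14b-KO. Ooep, of the subcortical maternal complex, was at 7040, 7155 and 6144 FPKM in WT and 9390, 3987 and 6962 FPKM in Lsm14b-KO. Both thus ran against the growth factors. Zp3, a zona pellucida gene, was at 311, 327 and 529 FPKM in WT and 391, 793 and 678 FPKM in Lsm14b-KO. Mos, a kinase gene of oocyte meiosis, was at 205, 214 and 288 FPKM in WT and 131, 472 and 304 FPKM in Lsm14b-KO. Whether these library differences have a part in the spread of the growth factors was not tested.

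Among 2560 tested genes with a mean of at least 5 FPKM, the 3 whose values followed each growth factor most closely over the 6 libraries were listed. For Gdf9 they were Cdk2ap2, Tacc3 and Rnf181, each at r = 0.992. For Bmp15 they were Lamp1 (r = 0.9995), Nlrp4e (0.996) and Nlrp9a (0.996). Nlrp9a was at 84.2, 91.2 and 185 FPKM in WT and 102, 505 and 249 FPKM in Lsm14b-KO. For Tgfb2 they were Ociad1 (0.994), Orc5 (0.992) and Mtpap (0.991), and for Bmp6 they were Map2k1 (0.976), Pex13 (0.974) and Pkig (0.963). For Fgf8 they were Lmo1 (0.997), Thap7 (0.993) and Paip1 (0.989). Thap7 was at 29.9, 29.2 and 37.9 FPKM in WT and 3.99, 8.97 and 8.59 FPKM in Lsm14b-KO. With 6 points and many genes searched, such high values are reported as a ranking alone, and genes chosen for likeness to a growth factor were given no test of genotype.

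Oocyte transcription factors listed as possible regulators of Gdf9 and Bmp15 included genes that rose. Of the 7 listed 5 were tested, 2 rose and none fell. This count and those of the lists below stand beside 21.6% of all tested genes called, 6.38% higher and 15.2% lower. Of the 5 tested, 1 reached the filter only in Lsm14b-KO and 1 only in WT. Nobox, an oocyte homeobox factor, was at 10.5, 10.5 and 16.5 FPKM in WT and 46.3, 98.9 and 52.3 FPKM in Lsm14b-KO, with no overlap (log2 fold change 2.25 ± 0.36, SE, limma adjusted p = 0.0064). Lhx8, a LIM homeobox factor, rose from 9.18 ± 0.752 to 16.8 ± 2.26 FPKM (SD, n = 3, limma adjusted p = 0.0447), a call that was lost in 7 of 13 alternative settings. Figla, a helix-loop-helix factor, was at 93.4 ± 2.61 and 94.4 ± 46.9 FPKM (adjusted p = 0.86), and Nr6a1, a nuclear receptor that represses both targets, was at 0.614 ± 0.229 and 1.90 ± 1.36 FPKM (adjusted p = 0.129) and passed the filter only through Lsm14b-KO libraries.

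The promoters of Bmp15 and Tgfb2, neither of which passed, are shown as sequence alone. Whether the transcription factors above have a part in the levels of these mRNAs was not tested. RefSeq promoter windows (GRCm38.p6) were matched for 3 of the 5 genes, Bmp15, Bmp6 and Tgfb2, and the 250 bases before the start were searched on both strands. The first NOBOX element searched was TAATTG, the second was TAATTA and the last was TAGTTG. The LHX8 element was TGATTG, and CANNTG is the E-box bound by helix-loop-helix factors such as FIGLA. Matches are in capitals. The Bmp15 window, at chrX:6320725-6320974 on the minus strand, holds TAATTA at -225, CANNTG at -201 and TGATTG at -45.
Bmp15: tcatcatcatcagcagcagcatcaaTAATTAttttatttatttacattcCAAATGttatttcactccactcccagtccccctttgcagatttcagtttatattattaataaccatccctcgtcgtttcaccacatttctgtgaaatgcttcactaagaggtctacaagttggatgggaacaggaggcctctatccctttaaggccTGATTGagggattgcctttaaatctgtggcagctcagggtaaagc
The Tgfb2 window, at chr1:186705990-186706239 on the minus strand, holds 1 CANNTG match, at -51.
Tgfb2: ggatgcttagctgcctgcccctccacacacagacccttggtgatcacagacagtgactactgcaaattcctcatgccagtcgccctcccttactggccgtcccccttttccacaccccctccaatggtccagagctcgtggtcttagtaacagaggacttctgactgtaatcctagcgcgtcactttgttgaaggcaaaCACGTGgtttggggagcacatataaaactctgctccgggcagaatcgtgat
Of 32851 windows of this length, TAATTA was found in 4.84%, TGATTG in 12.7%, TAATTG in 7.17%, TAGTTG in 5.69% and CANNTG in 66.2%. The Bmp6 window held CANNTG at -127 and -51 and none of the other letters. A match describes the sequence and not a bound site.

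Of 33 ligands of the TGF-β superfamily, 23 were listed at 0 in all libraries and 7 were tested: the 4 named above with Bmp5, Tgfb3 and Inha. A gene listed at 0 in a table without counts may still be expressed. None of the 7 passed, and 3 of them, Bmp6, Tgfb3 and Inha, reached the filter of 1 FPKM only in Lsm14b-KO, so no median over the 7 is given. Bmp5, a BMP6-related ligand, was at 7.54 ± 1.92 FPKM in WT and 8.62 ± 4.42 FPKM in Lsm14b-KO (SD, n = 3, limma adjusted p = 0.854), and so lay well above Bmp6 in every library. Of 22 FGF ligands 4 were tested, and 2 fell, Fgf8 and Fgf10. Fgf10, a ligand of the FGF7 subfamily, fell from 2.90 ± 0.516 to 1.00 ± 0.582 FPKM (SD, n = 3, log2 fold change -0.99, limma adjusted p = 0.0291, lost in 7 of 12 alternative settings). Fgf7 was at 7.28 ± 1.66 and 5.51 ± 1.42 FPKM (adjusted p = 0.341), and Fgf9 at 0.840 ± 0.519 and 0.193 ± 0.102 FPKM (adjusted p = 0.115).

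Other signaling molecules of the oocyte moved in both directions. Of 8 further genes of oocyte signaling, not all of them secreted factors, 6 were tested, with 1 that rose and 2 that fell. Oosp3, which encodes an oocyte-secreted protein, fell from 6976, 7179 and 6136 FPKM in WT to 1702, 355 and 509 FPKM in Lsm14b-KO (log2 fold change -3.32 ± 0.54, SE, limma adjusted p = 0.0068). Its relatives Oosp1 (5253 ± 477 and 3442 ± 1506 FPKM, adjusted p = 0.191) and Oosp2 (6780 ± 846 and 4076 ± 3176 FPKM, adjusted p = 0.172) did not pass. Il7, an interleukin, fell from 14.6 ± 1.19 to 6.77 ± 2.09 FPKM (SD, n = 3, limma adjusted p = 0.0305, lost in 9 of 13 alternative settings). Kit, the oocyte receptor for the KIT ligand of granulosa cells, rose from 4.08 ± 0.569 to 8.21 ± 2.13 FPKM (adjusted p = 0.0441, lost in 8 of 13). Rspo2, an enhancer of WNT signaling, was at 33.6 ± 3.75 and 57.7 ± 25.2 FPKM (adjusted p = 0.234).

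On the receiving side, 5 of 19 receptors were tested and 1 rose. Tgfbr1, a type I receptor used by TGF-β and GDF9, rose from 0.186, 0.327 and 0.181 FPKM in WT to 0.983, 1.27 and 1.01 FPKM in Lsm14b-KO (log2 fold change 0.76, limma adjusted p = 0.0279, lost in 6 of 12 alternative settings). It reached the filter of 1 FPKM only in Lsm14b-KO, where it was high, so its entry into the test depended on the rise. The BMP receptors Bmpr1b (4.51 ± 1.06 and 4.99 ± 0.954 FPKM, adjusted p = 0.705), Bmpr2 (1.85 ± 0.102 and 2.53 ± 0.637 FPKM, adjusted p = 0.313) and Bmpr1a (1.31 ± 0.232 and 1.94 ± 0.644 FPKM, adjusted p = 0.285) did not pass. Neither did the FGF receptor Fgfr2 (1.20 ± 0.266 and 0.760 ± 0.439 FPKM, adjusted p = 0.301).

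SMADs and their regulators gave 2 genes that rose and none that fell among 9 tested of 19. Id3, an inhibitor of helix-loop-helix factors and a common target of BMP signaling, was at 1.11, 0.962 and 0.709 FPKM in WT and 5.22, 7.04 and 4.86 FPKM in Lsm14b-KO (log2 fold change 1.79 ± 0.21, SE, limma adjusted p = 0.0022). Smad3, a SMAD of the TGF-β and activin branch, rose from 0.658 ± 0.0895 to 2.97 ± 1.34 FPKM (SD, n = 3, adjusted p = 0.0169, lost in 4 of 12 alternative settings), and it too reached the filter only in Lsm14b-KO. Tgif1, a SMAD corepressor, was at 2.69 ± 0.577 and 4.85 ± 0.729 FPKM (adjusted p = 0.0608), Ski, another corepressor, at 1.18 ± 0.212 and 3.48 ± 2.05 FPKM (adjusted p = 0.0848), and Id2 at 8.49 ± 3.78 and 6.10 ± 3.68 FPKM (adjusted p = 0.471).

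Antagonists and carriers of these ligands gave 2 genes that fell among 4 tested of 23. Spry1, an intracellular inhibitor of FGF receptor signaling, fell from 16.1, 10.0 and 12.2 FPKM in WT to 0.200, 0.273 and 0.367 FPKM in Lsm14b-KO, with no overlap (log2 fold change -3.41 ± 0.22, SE, limma adjusted p = 0.00054), and it reached the filter only in WT. Dand5, a secreted antagonist of the DAN family, fell from 18.7 ± 3.12 to 7.24 ± 1.08 FPKM (SD, n = 3, adjusted p = 0.0136, lost in 4 of 13 alternative settings). Spry4, a relative of Spry1, was at 2.91 ± 0.254 and 4.25 ± 2.38 FPKM (adjusted p = 0.437), and Chrdl1, a BMP antagonist, was at most 0.0562 FPKM in WT and 0.291 to 1.09 FPKM in Lsm14b-KO (adjusted p = 0.105). Of 12 enzymes that process the precursors only Tll1, a tolloid-like protease, was tested (0.773 ± 0.319 and 0.658 ± 0.0976 FPKM, adjusted p = 0.787). Over all these lists without the 5 growth factors, 138 symbols gave 36 tested genes, of which 6 rose, 5 fell and 25 did not pass. The filter was reached only in Lsm14b-KO by 7 of the 36 and only in WT by 4. Of the other 25 genes 4 rose, Nobox, Lhx8, Id3 and Kit, and 4 fell, Oosp3, Il7, Fgf10 and Dand5, which stands beside the 21.9% called among all tested genes that reached the filter in both genotypes. Nobox, Id3, Oosp3 and Spry1 kept their calls in all 13 alternative settings.

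**Figure D4:**
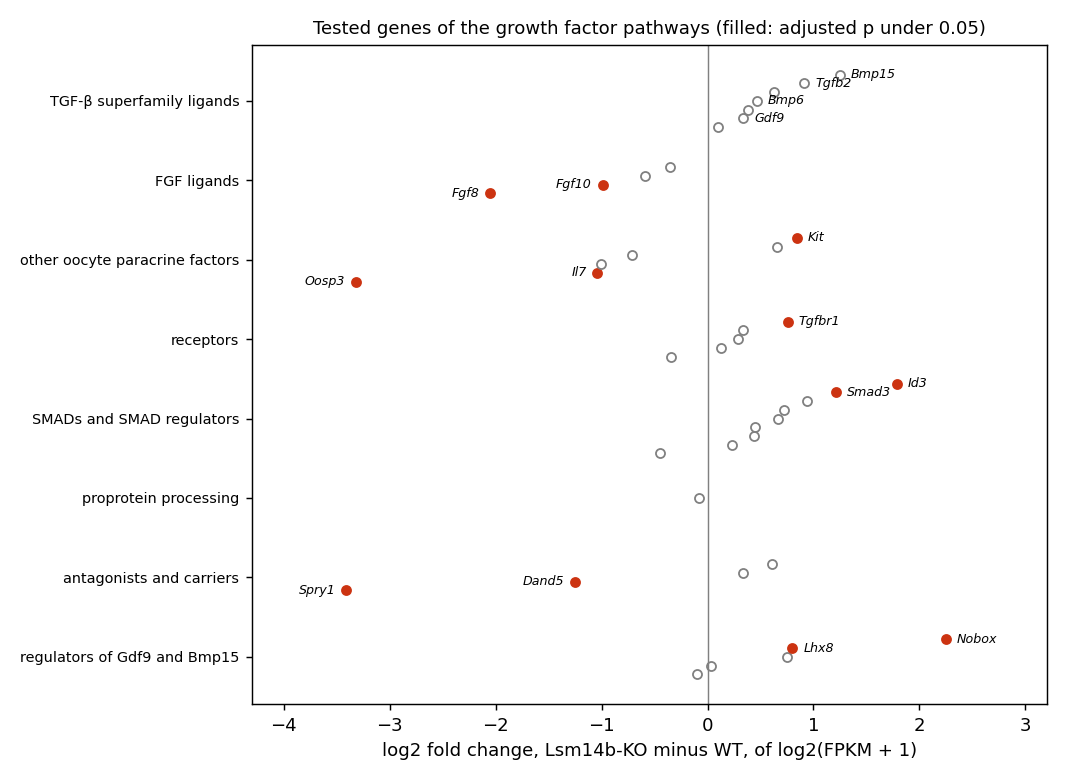
Log2 fold change, Lsm14b-KO minus WT, on the log2(FPKM + 1) scale (horizontal axis) of the tested genes of each list (rows, 1 point per gene, spread vertically for legibility). Filled points passed an adjusted p of 0.05 in limma and are named, together with the 5 growth factors. Fgf8 is the called growth factor, at -2.05, and Spry1 at -3.41 and Oosp3 at -3.32 lie farthest to the left.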

How the data were processed

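FPKM values of 3 WT and 3 Lsm14b-KO libraries were analysed, with groups taken from the labels. After trimming, the authors mapped the reads to mm10 with tophat2 (version 2.0.13) and computed the deposited FPKM with cufflinks (version 2.2.1). The annotation and strandedness are not given in the sources used here, and the labels name different library kits in separate places. The remaining columns of the table hold the authors' own group comparison and were not used. No fragment counts are given, so depth is known only in relative terms and no counting interval is given.

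Genes that reached 1 FPKM in any library were tested on log2(FPKM + 1) with limma 3.58.1 in R 4.3.3 (lmFit, eBayes with trend), with Benjamini-Hochberg adjustment over 6398 genes. Fold changes are on that scale, which understates low genes. Exact permutation tests were two-sided and used scipy 1.17.1. The limma steps were tested on simulated data. Alternatives were another pseudocount, other filters, TPM scaling, quantile normalization, a correction for length and GC content, a replicate block, and leaving out each library.

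The 5 growth factors and all gene lists were chosen with earlier results of these data known. From each list, the genes with an adjusted p under 0.05 were named, with the tested genes highest in mean FPKM, up to 4 a list. Coordinates, lengths (98.8% of tested genes) and overlaps came from GENCODE vM21 (GRCm38). With blastn 2.17.0, at 95% identity over at least 200 nt, no copy of a growth factor was found other than the stretch that Bmp6 shares with the overlapping gene Txndc5. Among the other named genes, Bmp5, Bmpr1a, Dppa3, Nlrp4e, Ociad1, Pkig, Tacc3 and Tgfb3 share such a stretch with another gene, so their values are uncertain.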

Additional observations from a re-analysis of the deposited data

How the results depend on the processing

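Of the 5 growth factors, Fgf8 was lower in Lsm14b-KO in all 13 alternative settings. It lost its call on the TPM scale (-1.43) and without WT library 1, 2 or 3, and its log2 fold change ranged from -2.29 to -1.61 when single libraries were left out. Without single libraries Gdf9 ranged from -0.12 to 0.87, with the negative value without Lsm14b-KO library 2, Bmp15 from 0.56 to 1.99, and Tgfb2 from 0.53 to 1.60. Bmp15 and Tgfb2 passed in 1 setting, without Lsm14b-KO library 1. The number of growth factors called was 0 on the TPM scale and 0 to 3 without single libraries. The cause was not tested. Bmp6 gave no value at a minimum of 5 FPKM.

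The count of all genes called was 1383. It was 720 with no filter on low values and 315 to 2898 without single libraries. The lowest came without Lsm14b-KO library 3 and the highest without library 1. An arm left with fewer libraries shares the pooled spread. Of the calls, 29.5% were higher in Lsm14b-KO, against 63.2% on the TPM scale, 42.4% after quantile normalization and 45.1% after the correction for length and GC content, where the median of all genes moved by 0.48, 0.14 and 0.18. The count of called pathway genes, 11, was 7 with no filter and 4 to 20 without single libraries.

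With the replicate number as a block, 7 pathway genes and 1244 genes in all were called, and Fgf8 remained the growth factor called (adjusted p = 0.01). Same-numbered libraries of both genotypes deviated together at r = 0.19, -0.13 and 0.018, and not every library correlated best with its own number, so the numbers were not taken to pair the samples.

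With a pseudocount of 0.1 the log2 differences of ratios with Bmp6 moved to -1.14 for Gdf9 to Bmp6, 3.81 for Bmp6 to Fgf8, -0.22 for Bmp15 to Bmp6 (0.78 at a pseudocount of 1) and 0.54 for Bmp6 to Tgfb2 (-0.45 at 1). The correction for length and GC content moved Tgfb2 to Fgf8 from 2.97 to 2.47. In the alternatives tried the other 5 pairs moved by less than 1 SD of the more variable genotype. Some of these moves exceeded the SD of WT alone, such as Gdf9 to Tgfb2 (-0.58 to -0.22 after that correction) and Gdf9 to Bmp15 (-0.91 to -0.68 without Lsm14b-KO library 2).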

Other observations

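On the TPM scale, in which each library sums to the same total, Gdf9 stood at 938, 1044 and 2105 TPM in WT libraries 1, 2 and 3 and at 887, 6306 and 3135 TPM in Lsm14b-KO libraries 1, 2 and 3. Bmp15 stood at 147, 168 and 333 TPM in WT and at 198, 2625 and 904 TPM in Lsm14b-KO. For both genes Lsm14b-KO libraries 2 and 3 lay above all of WT on this scale, whereas for Gdf9 only library 2 did on the FPKM scale. Tgfb2 stood at 16.4, 19.6 and 31.7 TPM in WT and at 17.9, 150 and 112 TPM in Lsm14b-KO. None of these differences passed in limma on that scale (log2 fold changes of 1.03, 1.94 and 1.59, adjusted p = 0.248, 0.108 and 0.125).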
